A study of Mus musculus with 12 samples.

Results

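The genes described are the core machinery that copies DNA: the subunits of the origin recognition complex, the licensing factors, the MCM helicase and its activators, the replicative polymerases, the sliding clamp and its loader, the single-strand binding complex, the enzymes that finish Okazaki fragments, and ribonucleotide reductase. Members were chosen by gene symbol, as every symbol that opens with Mcm, Gins, Orc, Pola, Pold, Pole or Rfc and a digit, plus Prim1, Prim2, Rpa1, Rpa2, Rpa3, Pcna, Cdc6, Cdt1, Cdc45, Gmnn, Rrm1, Rrm2, Fen1 and Lig1. This rule found 48 of the 32699 genes in the files and used no measured value. It leaves out Pole, the catalytic subunit of polymerase epsilon, whose symbol has no digit, and takes in Mcm3ap, Mcm8 and Mcm9, which share the MCM name and are not subunits of the replicative helicase.

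The study measured poly(A) RNA in mouse G1E-ER4 cells at passages 35 to 40, in 4 groups of 3 libraries. G1E-ER4 is a red blood cell precursor line that carries the erythroid transcription factor GATA-1 as a fusion with the ligand-binding part of the estrogen receptor (GATA-1ER), so that estradiol switches GATA-1 on and starts erythroid differentiation. TMG_E2 cells received 10 µM Thiamet-G (TMG) and 1 µM β-estradiol (E2) for 30 h. E2 cells received 1 µM estradiol alone for 30 h, and TMG cells received 10 µM Thiamet-G alone for 30 h. Ctrl cells received neither, with a treatment time of 0 h. Thiamet-G inhibits O-GlcNAcase, the enzyme that removes the sugar O-GlcNAc from proteins. All 4 groups carried the GATA-1ER fusion and grew with erythropoietin, stem cell factor and puromycin, and no group of cells without the fusion was analysed here. Estradiol itself and active GATA-1 therefore cannot be told apart, and all libraries come from a single cell line.

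Replication begins when the origin recognition complex, with Cdc6 and Cdt1, loads the ring-shaped MCM helicase on DNA, a step called licensing that geminin blocks outside its proper phase of the cell cycle. In S phase Cdc45 and the GINS complex join the MCM ring to form the active helicase, polymerase alpha-primase lays down primers, and polymerases epsilon and delta extend them with the help of the sliding clamp PCNA. Many of these genes are known targets of the E2F transcription factors and are transcribed most strongly as cells pass from G1 into S phase. Erythroid precursors are known to go on dividing during the first part of their differentiation, before they leave the cell cycle.

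Promoter sequences are shown for 4 members, since these carry the contrast between genes that differ in their response to estradiol: Cdc6, with the largest rise among the members, Pold2, with the largest fall, Cdt1, the licensing partner of Cdc6, which fell, and Mcm5, whose level differed little. Each runs from 250 bases before to 50 bases after the RefSeq start, on the strand of the gene, in GRCm38.p6. Cdc6 is at chr11:98907901-98908200 on the plus strand, Pold2 at chr11:5878207-5878506 on the minus strand, Cdt1 at chr8:122567765-122568064 on the plus strand and Mcm5 at chr8:75109259-75109558 on the plus strand. RefSeq gives Pold2 another start, whose window is not printed, and the RefSeq start of Cdc6 lies inside the gene span annotated by GENCODE. Capitals mark letters of an E2F site, searched on both strands as TTTGGCGC, TTTCCCGC, TTTGCCGC or TTTCGCGC, and letters of a GATA site, searched on both strands as AGATAA, as TGATAA where the first base differs, as AGATAG where the last base differs, and as TGATAG where both do.
Cdc6: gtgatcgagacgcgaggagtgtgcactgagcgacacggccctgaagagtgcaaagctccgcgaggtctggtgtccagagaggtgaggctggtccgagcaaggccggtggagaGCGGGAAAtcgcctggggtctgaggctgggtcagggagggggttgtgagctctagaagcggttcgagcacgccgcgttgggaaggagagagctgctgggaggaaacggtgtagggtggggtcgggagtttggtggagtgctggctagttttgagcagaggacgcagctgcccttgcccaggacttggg
Pold2: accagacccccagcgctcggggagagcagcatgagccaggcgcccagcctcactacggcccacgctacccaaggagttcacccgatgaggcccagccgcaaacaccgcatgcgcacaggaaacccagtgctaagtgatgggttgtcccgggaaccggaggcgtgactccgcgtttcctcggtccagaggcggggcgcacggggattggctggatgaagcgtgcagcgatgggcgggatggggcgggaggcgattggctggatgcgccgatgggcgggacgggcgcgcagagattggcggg
Cdt1: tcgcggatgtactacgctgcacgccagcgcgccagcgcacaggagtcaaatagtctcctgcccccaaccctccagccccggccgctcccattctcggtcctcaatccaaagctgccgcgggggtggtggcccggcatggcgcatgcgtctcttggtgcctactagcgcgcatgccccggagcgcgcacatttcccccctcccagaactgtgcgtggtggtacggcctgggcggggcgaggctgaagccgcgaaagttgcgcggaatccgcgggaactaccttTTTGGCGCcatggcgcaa
Mcm5: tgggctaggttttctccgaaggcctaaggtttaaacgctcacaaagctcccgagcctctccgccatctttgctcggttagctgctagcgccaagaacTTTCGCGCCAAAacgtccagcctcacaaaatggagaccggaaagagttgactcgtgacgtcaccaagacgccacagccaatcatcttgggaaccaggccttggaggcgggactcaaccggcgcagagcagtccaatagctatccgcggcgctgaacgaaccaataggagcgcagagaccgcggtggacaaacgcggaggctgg
The printed windows of Cdc6, Cdt1 and Mcm5 hold E2F letters, on both strands and overlapping in Mcm5, and the printed window of Pold2 holds neither kind. RefSeq promoters were matched by symbol for 41 of the 48 members. E2F letters stood in the promoters of 17 of these 41 (41.5%), against 350 of 6379 promoters (5.49%) of all genes that passed the expression filter and 704 of 27025 promoters (2.60%) in the whole table. Among the members called in E2 against Ctrl, the share was 7 of 16 for those higher with estradiol and 6 of 15 for those lower. GATA letters stood in 6 of 41 members (14.6%), namely Cdc45, Fen1, Mcm7, Orc2, Pola1 and the second window of Pold2, against 20.6% of the promoters of genes that passed the filter and 33.04% of all. They stood in 4 of the 16 members called higher with estradiol and 2 of the 15 called lower. CCAAT, the box bound by NF-Y, stood on either strand in 26 of 41 members (63.4%), against 44.4% and 41.1%. CCAAT can share its last letter with an E2F or GATA run, and a promoter that holds both was counted for each. A match is a run of letters in this window, not a measured binding site.

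Libraries held 17589380 to 23178721 expected counts, so that 3 counts correspond to 0.129 to 0.171 CPM, the count of a gene relative to the total of its library. CPM values here are scaled by the trimmed mean of M-values (TMM). With a CPM over 10 required in at least 2 libraries, 8273 genes and 47 of the 48 members were tested, and Mcm9 was not, at 5.63 to 8.44 CPM. The labels call the cells embryonic stem cells of the blastocyst stage, yet 4 of 5 stem cell markers were at 0 in every library and Nanog reached at most 0.281 CPM. The summed level of 8 erythroid markers was 27435 to 28611 CPM in TMG_E2 and 25631 to 27829 CPM in E2, against 1376 to 1442 CPM in TMG and 1331 to 1346 CPM in Ctrl. Most of the sum with estradiol was Hbb-bs, at 18526 to 21800 CPM, against 17.8 to 35.3 CPM without. All 8 were called higher in E2 than in Ctrl, but some moved far less, as Epor did, averaging 147 CPM in E2 and 91.9 CPM in Ctrl. The summed level of 5 mast cell markers was 0.321 to 0.659 CPM in TMG_E2 and 0.280 to 0.910 CPM in E2, against 77.4 to 93.9 CPM in TMG and 76.8 to 100.3 CPM in Ctrl. Both sums move with estradiol, and their part in the results below was not tested. The labels do not say that replicates are separate cultures, so p-values reflect only how far these libraries differ from each other, a spread that may be technical.

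With estradiol the replication genes moved in both directions, and a smaller share of them than of all genes passed 1.5-fold. Of 47 members tested, 21 (44.7%) were higher and 15 (31.9%) lower in E2 than in Ctrl at an adjusted p of 0.05, and 11 did not pass. Over all 8273 genes tested, 41.5% were called higher and 41.2% lower, 82.7% in all, against 76.6% of the members. The median log2 fold change was 0.03 over the members and -0.00076 over all genes. Scaling by library size alone lowers the median of all genes to -0.10 and gives 18 members higher and 22 lower, with 2871 of all genes higher and 3952 lower against 3432 and 3406 under TMM, so that the balance of the 2 directions rests on the scaling. Members past 1.5-fold in either direction numbered 7 of 47 (14.9%), against 36.3% of all genes, and those past 2-fold numbered 4 (8.51%), against 17.4%. The 4 were Cdc6, Pold4 and Rfc2, which rose, and Pold2, which fell. In bulk RNA, fewer cells in S phase and less RNA per cell cannot be told apart.

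**Figure D1:**
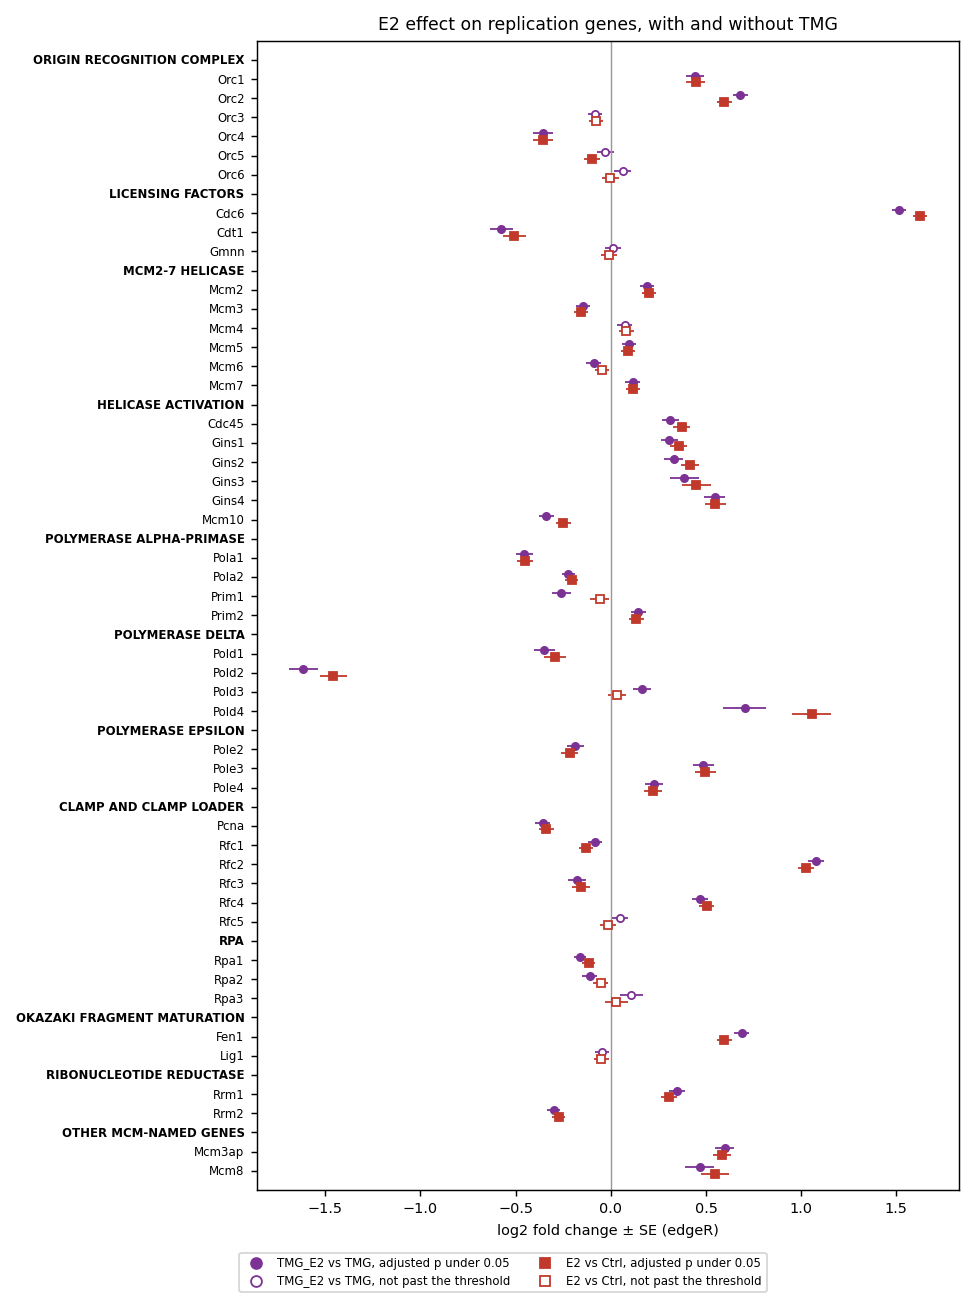
Log2 fold change of each of the 47 tested members, grouped by role down the page, with its SE as a bar, for TMG_E2 against TMG and for E2 against Ctrl, filled where the adjusted p was under 0.05. Positive values are higher with estradiol: Cdc6 stands at 1.51 and 1.62 and Pold2 at -1.61 and -1.46, while the MCM helicase genes lie close to 0.

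The licensing factors split. Cdc6, the ATPase that helps to load the MCM ring (chromosome 11, 98907801 to 98923940 on GRCm38), had 415, 377 and 387 CPM in TMG_E2, 408, 397 and 394 CPM in E2, 142, 135 and 136 CPM in TMG and 129, 130.5 and 129 CPM in Ctrl. Every library with estradiol was far above every library without it. Cdc6 rose 3.08-fold in E2 against Ctrl (log2 fold change 1.62 ± 0.04 (SE), adjusted p = 1.81e-16), the largest rise among the members. Cdt1, which brings the MCM ring to the origin with Cdc6 (chromosome 8, 122568015 to 122573554), had 104, 121 and 128 CPM in TMG_E2, 121, 123 and 131 CPM in E2, 169, 177 and 179 CPM in TMG and 187, 169.5 and 177 CPM in Ctrl. Its libraries with estradiol were all below those without, and it fell in E2 (log2 fold change -0.51 ± 0.06 (SE), adjusted p = 5.46e-07). Geminin, encoded by Gmnn (chromosome 13, 24751845 to 24761923), binds Cdt1 and blocks loading. Gmnn had 104, 99.9 and 106 CPM in TMG_E2, 101, 92.1 and 95.5 CPM in E2, 101, 102 and 104 CPM in TMG and 94.0, 99.3 and 96.8 CPM in Ctrl, and the E2 and Ctrl libraries overlapped. The difference between E2 and Ctrl was -0.01 ± 0.04 on the log2 scale (95% interval -0.10 to 0.08, adjusted p = 0.852). It was called lower with library size alone (adjusted p = 0.0228).

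**Figure D2:**
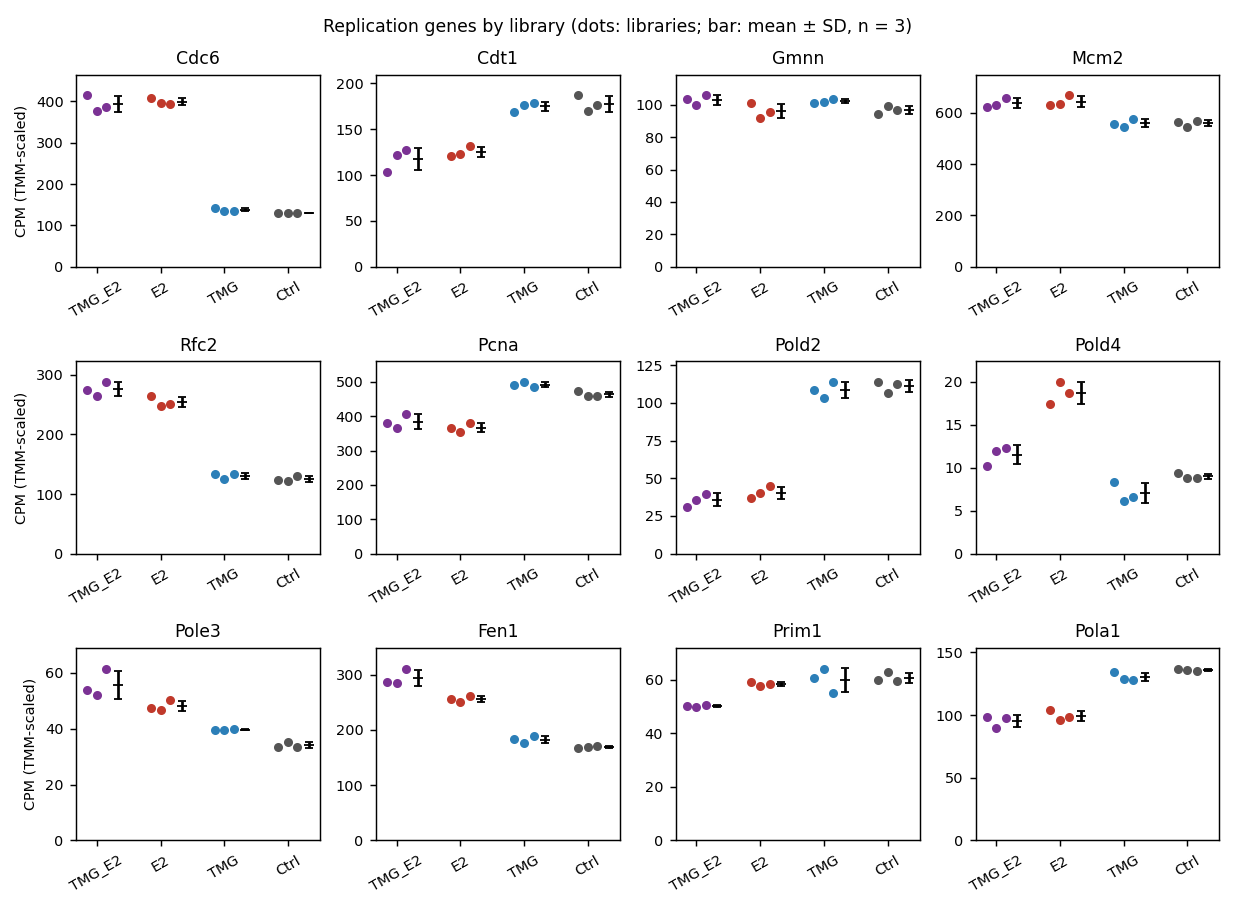
CPM of 12 members in each of the 12 libraries, with the groups TMG_E2, E2, TMG and Ctrl from left to right, a point per library and a bar at the group mean with its SD. Cdc6 lies between 129 and 415 CPM and separates the libraries with estradiol from those without, as Pold2 does in the opposite direction.

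Subunits of the origin recognition complex, which marks origins, did not move together. Of 6 members, Orc1 and Orc2 rose in E2, Orc4 and Orc5 fell, and Orc3 and Orc6 did not pass. Orc2 (chromosome 1, 58462771 to 58505109) had 259, 242 and 265 CPM in TMG_E2, 249.9, 243 and 247 CPM in E2, 158, 162 and 158 CPM in TMG and 155, 167 and 167 CPM in Ctrl, higher in every library with estradiol, and rose 1.51-fold (log2 fold change 0.60 ± 0.04 (SE), adjusted p = 2.35e-10). Orc1, the ATPase subunit whose protein in mammals varies over the cell cycle, averaged 58.6 ± 0.948 CPM in E2 and 43.0 ± 2.65 CPM in Ctrl (SD, n = 3 each; log2 fold change 0.45 ± 0.05 (SE), adjusted p = 2.15e-07). Orc4 (chromosome 2, 48902824 to 48950277), another subunit of the AAA+ family, had 49.3, 47.4 and 44.9 CPM in TMG_E2, 49.3, 42.1 and 45.5 CPM in E2, 60.0, 61.2 and 60.3 CPM in TMG and 57.1, 60.7 and 57.3 CPM in Ctrl. All libraries with estradiol were below all those without, and Orc4 fell (log2 fold change -0.36 ± 0.05 (SE), adjusted p = 8.49e-06). Orc5 differed by only -0.10 ± 0.04 (adjusted p = 0.0427). Its call ended with filterByExpr (adjusted p = 0.0610), with no filter (0.0895), under DESeq2 (0.0789), and without Ctrl replicate 1, 2 or 3 (0.0587, 0.150 and 0.0867) or E2 replicate 2 or 3 (0.0694 and 0.176). Orc3 differed by -0.08 ± 0.04 (adjusted p = 0.0677) and Orc6 by -0.0037 ± 0.04 (adjusted p = 0.942). With the replicate number as a block Orc3 was called lower (adjusted p = 0.0333), as it was without E2 replicate 2 (0.0467) and with library size alone (0.000793).

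Of the 6 subunits of the MCM helicase, which unwinds the parental strands, 3 rose and 1 fell in E2, and none differed from Ctrl by more than 0.20 on the log2 scale. Mcm2 (chromosome 6, 88883474 to 88898780) had 625, 631 and 660.2 CPM in TMG_E2, 629, 634 and 669.6 CPM in E2, 558, 545 and 577 CPM in TMG and 567, 546 and 570.2 CPM in Ctrl. Its libraries with estradiol were all above those without, by a small margin, and it rose (log2 fold change 0.20 ± 0.04 (SE), adjusted p = 0.000102). Mcm7 and Mcm5 also rose, by 0.12 ± 0.04 and 0.09 ± 0.04 (adjusted p = 0.00981 and 0.0294), and Mcm3 fell (-0.16 ± 0.04, adjusted p = 0.000896). Mcm4 (0.08 ± 0.04, adjusted p = 0.0632) and Mcm6 (-0.05 ± 0.04, adjusted p = 0.247) did not pass. With library size alone, the counts of 3 higher and 1 lower became 1 higher and 2 lower: Mcm5 turned to -0.01 (adjusted p = 0.870), Mcm7 lost its call (0.646) and Mcm6 was called lower (0.00149). The call of Mcm5 also ended with no filter (0.0626) and without E2 replicate 1 (0.0545), E2 replicate 3 (0.0689) or Ctrl replicate 2 (0.0787). Mcm4 was called higher with the replicate block (adjusted p = 0.0208), with only the groups compared (0.0184) and without E2 replicate 2 (0.0267).

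The partners that turn the loaded MCM ring into a working helicase rose, apart from Mcm10. All 4 GINS subunits rose in E2: Gins4 by 0.55 ± 0.06, Gins3 by 0.45 ± 0.08, Gins2 by 0.41 ± 0.05 and Gins1 by 0.36 ± 0.04 on the log2 scale (adjusted p at most 3.22e-05). Cdc45, which binds the ring together with GINS, averaged 113 ± 0.659 CPM in E2 and 87.0 ± 1.26 CPM in Ctrl (SD, n = 3 each; log2 fold change 0.37 ± 0.05 (SE), adjusted p = 6.19e-07). Mcm10, a separate factor needed for the helicase to start, fell (log2 fold change -0.25 ± 0.04 (SE), adjusted p = 1.47e-05). Of the annotated exon bases of Gins2, 69.0% are also exonic in Gse1 on the other strand, and Gse1 stood 1.68 higher in E2. The sources used here do not say whether reads were counted by strand, and the part of Gse1 reads in Gins2 was not tested.

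The polymerases showed the widest split inside a single complex, that of polymerase delta, which extends the lagging strand. Pold2 (chromosome 11, 5872180 to 5878292), the subunit that joins the catalytic subunit to Pold3, had 31.2, 35.8 and 39.8 CPM in TMG_E2, 36.7, 39.9 and 44.7 CPM in E2, 109, 103 and 114 CPM in TMG and 114, 107 and 113 CPM in Ctrl. All its libraries with estradiol lay far below all those without. In E2 it stood at 0.364 of its level in Ctrl (log2 fold change -1.46 ± 0.07 (SE), adjusted p = 3.85e-12), the largest fall among the members. Pold4 (chromosome 19, 4231899 to 4233634), the smallest subunit, had 10.2, 11.98 and 12.3 CPM in TMG_E2, 17.4, 20.0 and 18.7 CPM in E2, 8.30, 6.07 and 6.61 CPM in TMG and 9.32, 8.82 and 8.85 CPM in Ctrl. E2 libraries were above all the others, and Pold4 rose 2.08-fold in E2 against Ctrl (log2 fold change 1.05 ± 0.10 (SE), adjusted p = 2.87e-08). Pold4 passed the filter only through libraries with estradiol, so that a rise was a condition of its being tested. It was also called with filterByExpr and with no filter, at the adjusted p-values 1.97e-08 and 6.69e-17. Pold1 (chromosome 7, 44532746 to 44548849), the catalytic subunit, had 129.8, 147 and 144 CPM in TMG_E2, 149, 147 and 159.6 CPM in E2, 166, 181 and 189 CPM in TMG and 196, 174 and 189 CPM in Ctrl. The libraries with estradiol were all below those without, and Pold1 fell (log2 fold change -0.29 ± 0.06 (SE), adjusted p = 0.000132). Pold3 (chromosome 7, 100082111 to 100121565), which binds PCNA, had 112, 104 and 112 CPM in TMG_E2, 101, 90.5 and 95.9 CPM in E2, 100.3, 94.1 and 98.4 CPM in TMG and 97.5, 90.2 and 92.6 CPM in Ctrl. E2 and Ctrl overlapped, with a difference of 0.03 ± 0.05 (95% interval -0.07 to 0.14, adjusted p = 0.513).

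In polymerase alpha-primase, which makes the primers, Pola1 and Pola2 fell and Prim2 rose slightly. Pola1 (chromosome X, 93304767 to 93632155), the catalytic subunit, had 98.6, 89.4 and 97.6 CPM in TMG_E2, 104, 96.1 and 98.7 CPM in E2, 134, 129 and 128 CPM in TMG and 137, 136 and 135 CPM in Ctrl, lower in every library with estradiol (log2 fold change -0.45 ± 0.04 (SE), adjusted p = 2.49e-08). Pola2, its accessory subunit, fell (-0.21 ± 0.04, adjusted p = 4.35e-05). Prim2, the large primase subunit, rose by 0.13 ± 0.04 (adjusted p = 0.00376), a call that ended with library size alone (adjusted p = 0.425). Prim1 (chromosome 10, 128015168 to 128030037), the catalytic primase subunit, had 50.2, 49.9 and 50.7 CPM in TMG_E2, 59.4, 57.7 and 58.3 CPM in E2, 60.9, 64.2 and 55.3 CPM in TMG and 60.0, 63.1 and 59.7 CPM in Ctrl. Its E2 libraries lay just below those of Ctrl, and the difference did not pass (-0.06 ± 0.05, adjusted p = 0.264) except with library size alone (0.00800). In polymerase epsilon, which extends the leading strand, the histone-fold subunits Pole3 and Pole4 rose, by 0.50 ± 0.06 and 0.22 ± 0.05 (adjusted p = 3.71e-07 and 0.000425), and Pole2, the accessory subunit next to the catalytic one, fell (-0.22 ± 0.04, adjusted p = 0.000244). The catalytic subunit Pole, outside the rule, rose by 0.16 ± 0.05 (adjusted p = 0.00431), a call that ended with library size alone. In TMG_E2 against TMG it was not called, at 0.07 ± 0.05 (adjusted p = 0.164).

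The clamp fell, and the subunits of its loader moved in both directions. Pcna (chromosome 2, 132249162 to 132253314), the ring that holds polymerases on DNA, had 380.3, 365 and 407 CPM in TMG_E2, 366, 354 and 381 CPM in E2, 489.9, 499.8 and 486 CPM in TMG and 473, 459 and 459 CPM in Ctrl. All libraries with estradiol were below all those without, and Pcna fell (log2 fold change -0.34 ± 0.04 (SE), adjusted p = 5.33e-07). Rfc2 (chromosome 5, 134581366 to 134601805), a small subunit of the clamp loader, had 275, 265 and 288 CPM in TMG_E2, 264, 248 and 252 CPM in E2, 134, 125 and 134 CPM in TMG and 123, 122 and 130.5 CPM in Ctrl. It was higher in every library with estradiol than in any without and rose 2.03-fold (log2 fold change 1.02 ± 0.04 (SE), adjusted p = 3.24e-13). Rfc4, another small subunit, rose by 0.50 ± 0.04 (adjusted p = 2.42e-09). Rfc3 (-0.15 ± 0.05, adjusted p = 0.00615) and the large subunit Rfc1 (-0.13 ± 0.04, adjusted p = 0.00332) fell. Rfc5 did not pass (-0.02 ± 0.04, adjusted p = 0.737) except with library size alone (0.0188). Exons of Orc2, Rfc4 and Rfc5 share 24.0%, 12.1% and 15.4% of their bases with Nif3l1, Eif4a2 and Wsb2 on the other strand. These neighbours stood at -0.78, -0.52 and 1.15 in the same comparison, and their part was not tested. Rfc2 shares 18.1% with Lat2, which averaged 11.7 expected counts in E2 and 6.67 in Ctrl. Of the exon bases of Fen1, 78.8% are also exonic in Gm10143 on the other strand, and 24.6% of those of Pold4 are shared with an annotated neighbour on its own strand. Neither of these neighbours was analysed here under its annotated symbol, and their part in the values of Fen1 and Pold4 was not tested.

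In RPA, the complex that coats single-stranded DNA, 1 of 3 subunits passed the test. Rpa1, the large subunit, fell (log2 fold change -0.12 ± 0.03 (SE), adjusted p = 0.00341), while Rpa2 (-0.05 ± 0.04, adjusted p = 0.223) and Rpa3 (0.03 ± 0.06, adjusted p = 0.666) did not pass. Rpa2 was called lower with library size alone (0.00281). Of the enzymes that finish Okazaki fragments, Fen1 (chromosome 19, 10199132 to 10204169), the flap endonuclease, had 287, 284 and 310.5 CPM in TMG_E2, 255, 250.01 and 261 CPM in E2, 184, 176 and 188 CPM in TMG and 167, 169 and 170.2 CPM in Ctrl. Every library with estradiol was above every library without, and Fen1 rose 1.51-fold (log2 fold change 0.60 ± 0.04 (SE), adjusted p = 1.73e-10). Lig1, which seals the nick, did not pass (-0.05 ± 0.04, adjusted p = 0.234) except with library size alone, where it was lower (0.00187).

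Ribonucleotide reductase, which makes the deoxynucleotides, split between its subunits. Rrm2 (chromosome 12, 24708241 to 24714146), the small subunit whose level follows S phase, had 373, 357 and 373 CPM in TMG_E2, 379, 363 and 387 CPM in E2, 444, 468 and 447 CPM in TMG and 458, 452 and 454 CPM in Ctrl, lower in every library with estradiol (log2 fold change -0.27 ± 0.04 (SE), adjusted p = 1.46e-06). Rrm1, the large subunit, rose (log2 fold change 0.31 ± 0.04 (SE), adjusted p = 2.66e-06). Of the genes that share only the MCM name, Mcm3ap (chromosome 10, 76468927 to 76515857), which encodes the mRNA export factor GANP, had 173, 169 and 154 CPM in TMG_E2, 167, 162 and 156 CPM in E2, 113, 103 and 112 CPM in TMG and 107, 107 and 109 CPM in Ctrl. It was higher in every library with estradiol (log2 fold change 0.59 ± 0.05 (SE), adjusted p = 2.82e-09). Mcm8 (chromosome 2, 132816141 to 132844197), which works with Mcm9 in recombination repair, had 32.6, 31.2 and 27.4 CPM in TMG_E2, 36.2, 37.3 and 35.4 CPM in E2, 23.5, 22.7 and 19.8 CPM in TMG and 25.7, 25.8 and 23.1 CPM in Ctrl. The E2 libraries held the highest values, and Mcm8 rose in E2 against Ctrl (log2 fold change 0.55 ± 0.07 (SE), adjusted p = 1.75e-06).

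Levels were compared between genes with the authors' TPM values, which are scaled for transcript length and not by TMM. Pcna had the highest level of the members in Ctrl, 672 ± 15.5 TPM (SD, n = 3), and stood at 465 ± 18.4 TPM in E2. The MCM helicase genes and Rrm2 followed, the helicase genes running from 394 ± 2.86 TPM for Mcm6 to 195 ± 5.56 TPM for Mcm4 in Ctrl, with Rrm1 at 215 ± 3.35 TPM. Mcm3 and Rrm2, neighbours in that order, stood at 366 ± 6.0 and 356 ± 5.03 TPM, and Mcm7 and Mcm5 at 317 ± 3.43 and 311 ± 6.70 TPM, so that the values of each pair lay within about 2 SD of each other. Mcm9 was lowest, at 3.65 ± 0.549 TPM. In polymerase delta the order differed between the groups. In E2 it ran from Pold1 at 64.2 ± 2.79 TPM through Pold3 at 46.4 ± 2.83 and Pold2 at 38.7 ± 3.73 to Pold4 at 35.4 ± 2.84 TPM, the means of Pold2 and Pold4 differing by less than the SD of Pold2 and their libraries overlapping. In Ctrl it ran from Pold2 at 122 ± 4.93 TPM through Pold1 at 89.9 ± 6.03 and Pold3 at 51.8 ± 2.42 to Pold4 at 20.2 ± 0.827 TPM. In the clamp loader Rfc2 stood at 260.4 ± 10.4 TPM in E2 and 146 ± 5.71 TPM in Ctrl, above the other loader subunits in both groups. The 48 members together took 0.548% to 0.584% of all TPM in TMG_E2 and 0.552% to 0.576% in E2, against 0.606% to 0.625% in TMG and 0.614% to 0.627% in Ctrl. This share is a sum over unequal genes in which Pcna, Rrm2 and the MCM genes weigh most, and it is a level relative to all other transcripts. In TMM-scaled CPM the sum of the members went the other way. It was 8983 to 9491 in TMG_E2 and 9049 to 9293 in E2, against 8692 to 8860 in TMG and 8637 to 8738 in Ctrl. The direction of the summed level therefore rests on the measure.

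**Figure D3:**
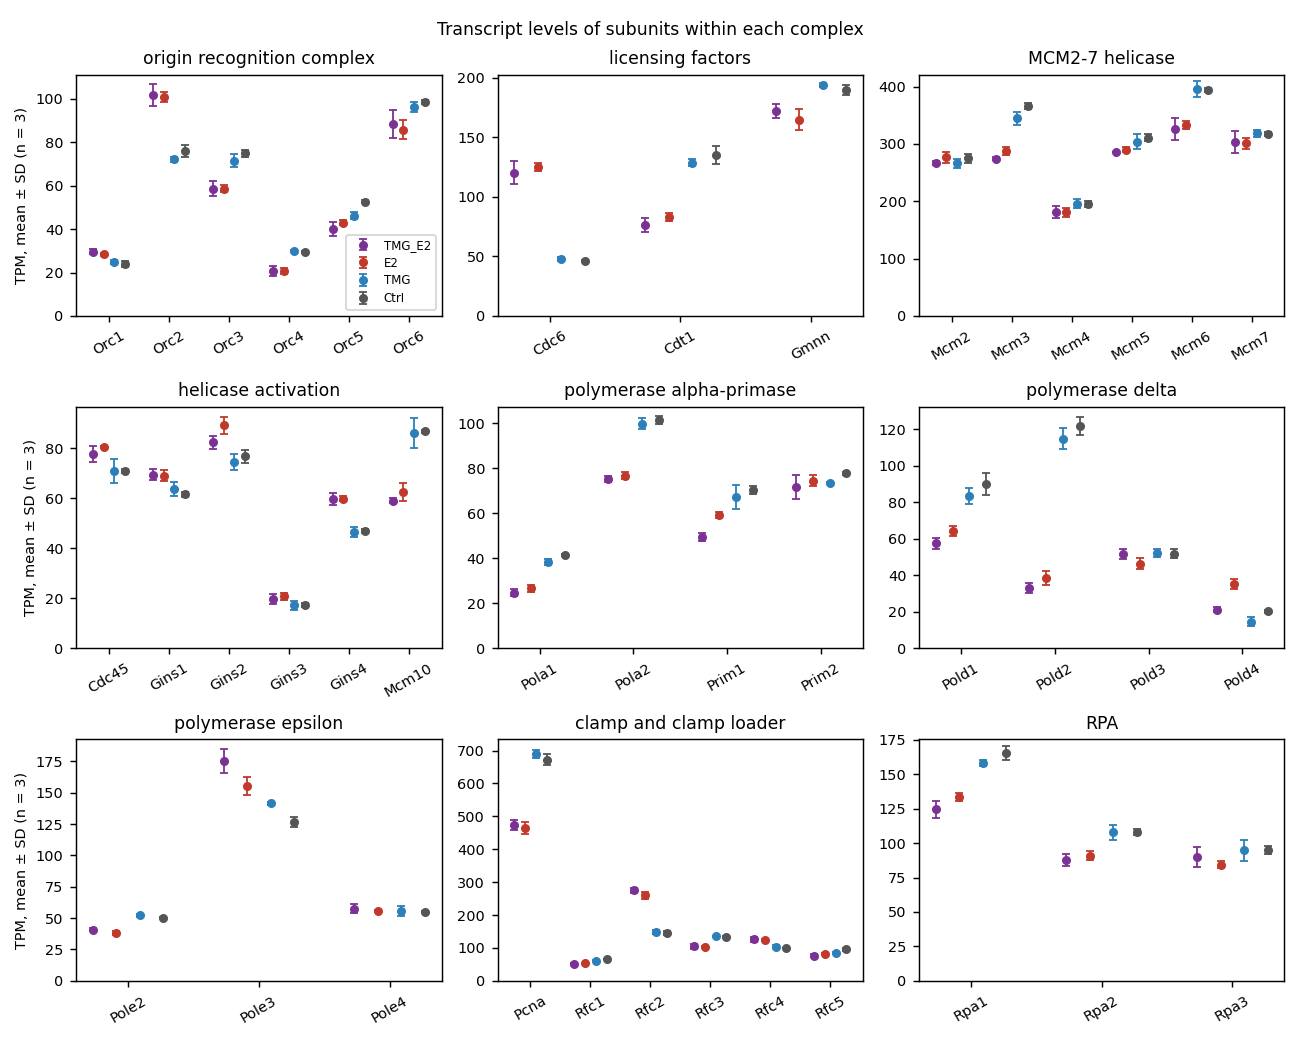
Mean level in TPM, as the authors deposited it, of the subunits of 9 complexes, with the SD over 3 libraries, for TMG_E2, E2, TMG and Ctrl from left to right within each gene. Pold2 falls below Pold3 with estradiol, at 33.1 and 38.7 TPM in TMG_E2 and E2 against 115 and 122 TPM in TMG and Ctrl.

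The response to estradiol was measured a second time under TMG, in TMG_E2 against TMG, with no library in common with E2 against Ctrl. Here 22 of 47 members (46.8%) were higher and 17 (36.2%) lower, against 40.9% and 41.8% of all genes (82.7% in all). With library size alone the counts were 18 higher and 20 lower. Signs matched the first comparison for 44 of 47 members, and 35 were called in both, 21 higher, 14 lower and none in opposite directions. Such counts were not made over all genes, of which 82.7% were called in each comparison. Whether this agreement is particular to the members was not tested. Because libraries with the same number deviated together, the 2 comparisons need not be independent. Cdc6 rose 2.86-fold (log2 fold change 1.51 ± 0.04 (SE), adjusted p = 4.95e-16), Rfc2 rose 2.11-fold (log2 fold change 1.08 ± 0.04 (SE), adjusted p = 1.64e-13) and Pold2 stood at 0.327 of its level in TMG (log2 fold change -1.61 ± 0.07 (SE), adjusted p = 1.28e-12). Pold4 rose by 0.70 ± 0.11 under TMG, where it had risen by 1.05 ± 0.10 without it. Mcm6, Pold3, Prim1 and Rpa2 were called only in TMG_E2 against TMG and Orc5 only in E2 against Ctrl, and none of these 5 passed the test of the difference between the 2 settings, the interaction given below. Under TMG, Pold3 rose by 0.16 ± 0.05 (adjusted p = 0.00450) and Prim1 fell (-0.26 ± 0.05, adjusted p = 0.000117).

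Several small differences in TMG_E2 against TMG rested on the processing. Mcm6 (-0.09 ± 0.04, adjusted p = 0.0344) lost its call with RLE factors (0.0560), filterByExpr (0.0695), no filter (0.0584), only the groups compared (0.180), and without TMG replicate 1 or 2 (0.132 and 0.0969) or TMG_E2 replicate 2 (0.286). Rfc1 (-0.08 ± 0.04, adjusted p = 0.0462) lost its call under those same settings (0.0766 to 0.190 over them), under DESeq2 (0.0983) and without TMG_E2 replicate 3 (0.161). Rpa2 (-0.11 ± 0.04, adjusted p = 0.0175) lost its call with only the groups compared (0.0839) and without TMG replicate 1 or 2 (0.0550 and 0.132) or TMG_E2 replicate 2 (0.0926). Mcm5 (0.10 ± 0.04) turned to -0.0014 with library size alone and lost its call with only the groups compared (0.0603), without TMG replicate 2 (0.0743) and without TMG_E2 replicate 3 (0.0657). Pold3, Mcm7 and Prim2 lost theirs with library size alone (0.219, 0.686 and 0.292). With the replicate block, Mcm4 was called higher (adjusted p = 0.0339) and Orc3 lower (0.0257).

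In TMG against Ctrl a single replication gene passed the test. Of 47 members 1 (2.13%) was called higher in TMG and none lower, against 3.01% and 2.14% of all genes (5.15% in all), and 10 had an unadjusted p under 0.05, with 1564 of 8273 genes. The median log2 fold change of the members was 0.02, against 0.0028 over all genes, and no member passed 1.5-fold. Among the marker genes, 3 of 8 erythroid markers were called higher in TMG than in Ctrl and 2 of the 3 tested mast cell markers lower. Those 2 were Cpa3 and Ms4a2, whose levels lie near the filter. The other, Il1rl1, was not called and lay higher in TMG, at 64.8, 65.8 and 71.3 CPM against 55.5, 55.0 and 59.3 CPM in Ctrl. The part of these markers in the results on TMG was not tested. The called member was Pole3 (chromosome 4, 62522649 to 62525068), a histone-fold subunit of polymerase epsilon that also serves in a chromatin remodeller, with 53.6, 52.0 and 61.4 CPM in TMG_E2, 47.3, 46.8 and 50.1 CPM in E2, 39.6, 39.6 and 39.7 CPM in TMG and 33.6, 35.3 and 33.3 CPM in Ctrl. The 4 groups did not overlap, TMG_E2 being highest and Ctrl lowest. Pole3 rose in TMG against Ctrl by 0.22 ± 0.06 (adjusted p = 0.0400). This call ended with filterByExpr (adjusted p = 0.0508) and whenever any of the 6 libraries was left out, at 0.0629 without Ctrl replicate 2 to 0.176 without Ctrl replicate 3. Pold4 stood at -0.36 ± 0.11 (adjusted p = 0.0843), and was called lower with no filter (0.0463) and without TMG replicate 1 (0.0284). Rfc5 stood at -0.14 ± 0.04 and Orc5 at -0.14 ± 0.04 (adjusted p = 0.0594 and 0.0733), and both were called lower with only the groups compared (0.0358 and 0.0373). Fen1, at 0.11 ± 0.04 (adjusted p = 0.116), was called higher in that fit (0.0488). Among the licensing factors, the clamp and the helicase, the 95% intervals were 0.0026 to 0.17 for Cdc6, -0.15 to 0.10 for Cdt1, 0.00029 to 0.17 for Pcna and -0.08 to 0.08 for Mcm2.

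**Figure D4:**
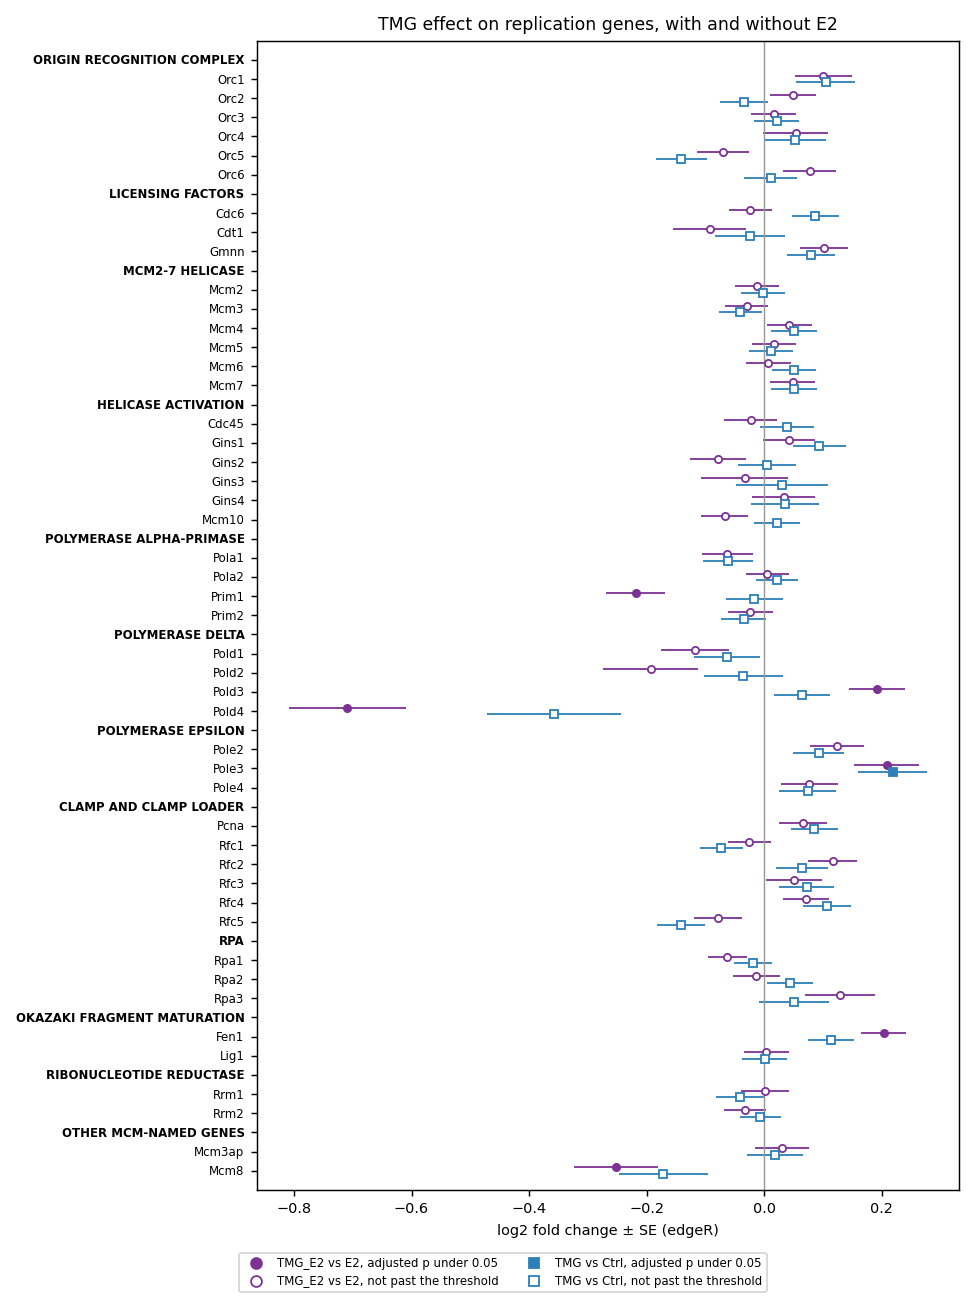
Log2 fold change of each of the 47 tested members with its SE as a bar for TMG_E2 against E2 and for TMG against Ctrl, grouped by role down the page and filled where the adjusted p was under 0.05. Positive values are higher with TMG: Pold4 lies farthest from 0, at -0.71 and -0.36, and Pole3 is on the positive side in both, at 0.21 and 0.22.

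In cells that also received estradiol, 3 members rose and 3 fell with TMG (12.8% called, against 12.8% of all genes, 5.61% higher and 7.14% lower), and 11 members had an unadjusted p under 0.05, with 2306 of 8273 genes. Pold4 fell most, with the values per library given above: the TMG_E2 libraries lay between those of E2 and Ctrl, at 0.612 of the level in E2 (log2 fold change -0.71 ± 0.10 (SE), adjusted p = 0.000342). Prim1, the catalytic primase subunit, was below all E2 libraries in every TMG_E2 library (log2 fold change -0.22 ± 0.05 (SE), adjusted p = 0.00894). Mcm8 likewise lay lower in all 3 TMG_E2 libraries (log2 fold change -0.25 ± 0.07 (SE), adjusted p = 0.0271). The 3 members that rose were Fen1 (log2 fold change 0.20 ± 0.04 (SE), adjusted p = 0.00280), Pold3 (log2 fold change 0.19 ± 0.05 (SE), adjusted p = 0.0138) and Pole3 (log2 fold change 0.21 ± 0.06 (SE), adjusted p = 0.0209), and for none of them did the TMG_E2 libraries overlap those of E2. TMG_E2 replicates differed more among themselves than those of the other groups, with chi-square values per degree of freedom over all genes of 8.67 to 13.2 against 2.41 to 4.17. Of 8 erythroid markers 1 was called higher and 1 lower in TMG_E2 than in E2, and none of the 3 tested mast cell markers was called.

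The calls of Fen1, Prim1 and Pold4 held under every alternative run, and the other 3 did not. Mcm8 lost its call with only the groups compared (adjusted p = 0.0525), without E2 replicate 1, 2 or 3 (0.0679, 0.106 and 0.0524) and without TMG_E2 replicate 2 or 3 (0.0504 and 0.0828). Pole3 lost its call with only the groups compared (0.0765), without E2 replicate 1 or 2 (0.0609 and 0.0771) and without TMG_E2 replicate 3 (0.0661), and Pold3 without E2 replicate 2 (0.0650). Rfc2, at 0.12 ± 0.04 (adjusted p = 0.0750), was called higher with the replicate block (0.0253), under DESeq2 (0.0467) and without TMG_E2 replicate 2 (0.0336). Pold2, at -0.19 ± 0.08 (adjusted p = 0.126), was called lower with no filter (0.0491) and without TMG_E2 replicate 3 (0.0275).

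Whether TMG acted differently with and without estradiol was tested by the interaction, the difference between TMG_E2 against E2 and TMG against Ctrl. No member was called by edgeR's quasi-likelihood test, nor by DESeq2, with 0.266% of all genes called higher and 0.665% lower (0.931% in all) and a smallest adjusted p among the members of 0.229. Pold4 (-0.35 ± 0.15) and Prim1 (-0.20 ± 0.07) were the 2 members with an unadjusted p under 0.05, with 914 of 8273 genes. The effects of TMG in the 2 settings had the same sign for 39 of 47 members, and Pole3 was the member called in both. Neither count was made over all genes, so whether they are particular to the members was not tested. For Pole3 the interaction was -0.01 ± 0.08 (95% interval -0.18 to 0.16), and for Cdc6 it was -0.11 ± 0.05 (-0.23 to 0.0048).

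Genes that work beside the core machinery were counted from lists of the same pathway. In E2 against Ctrl, 7 of 14 helicase loading and origin firing partners rose and 2 fell (median log2 fold change 0.07), as did 7 and 2 of 12 fork partners (0.13) and 3 and 1 of 5 alternative clamp loaders (0.23). Ccna2, cyclin A, rose 1.96-fold (0.97), Rnaseh2a, the catalytic subunit of RNase H2, rose by 0.90, and Chtf8, of an alternative clamp loader, fell (-0.65). Genes of dNTP supply were mostly lower, with 8 of 10 falling and 2 rising (median -0.69), and Dck, the salvage enzyme deoxycytidine kinase, rose by 1.42. Of 9 genes of replication-coupled chromatin assembly, 6 fell and none rose (median -0.13), with Uhrf1, which recruits the maintenance methyltransferase, at -0.60. The E2F and RB family was divided, 6 of 13 higher and 7 lower (median -0.18), with Tfdp2, a partner of E2F proteins, at 1.05. Among those lower, E2f5 had 7.54 to 8.79 CPM with estradiol and 14.1 to 16.2 CPM without. E2f5 passed the filter only through libraries without estradiol, so that a fall was a condition of its being tested. Genes of G2 and mitosis were mostly higher, 14 of 20 rising and 3 falling (median 0.42), with Cdc25b, a phosphatase that activates cyclin-dependent kinases, at 3.66. Cdc25b passed the filter only through libraries with estradiol. These counts stand beside 41.5% higher and 41.2% lower among all genes. With library size alone, the loading and firing partners were 6 higher and 7 lower, with the median turned to -0.03, the fork partners 5 and 4, the alternative clamp loaders 2 and 2, and G2 and mitosis 13 and 5.

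In TMG against Ctrl none of the 83 tested genes of these 7 lists was called by edgeR or DESeq2, against 5.15% of all genes, and 12 had an unadjusted p under 0.05. In TMG_E2 against E2, 11 of the 83 were called, 4 higher and 7 lower, against 12.8% of all genes. Of dNTP supply 3 of 10 fell, among them Dctpp1, which degrades non-canonical dCTP, at -0.33 ± 0.07 and the nucleoside diphosphate kinase gene Nme2 at -0.30 ± 0.05. Cdc25b was lower (-0.26 ± 0.06) and Ccnb2, cyclin B2, higher (0.16 ± 0.05) in the list of G2 and mitosis, where 2 of 20 rose and 1 fell. E2f2 rose (0.27 ± 0.08) and Tfdp1 fell (-0.16 ± 0.05) in the E2F and RB family. Ccna2 rose (0.13 ± 0.04) and Recql4, a helicase of origin firing, fell (-0.15 ± 0.05) among the firing partners, and the nuclease gene Dna2 fell (-0.19 ± 0.05) among the fork partners. With library size alone the 83 genes gave 1 higher and 9 lower: Ccnb2, Birc5 and Ccna2 lost their calls, and Dnmt1 and Uhrf1 were called lower. DESeq2 gave 5 higher and 5 lower, with Recql4 and Dut losing their calls and Ccnb1 called higher. By the interaction none of the 83 was called by edgeR with TMM, with 9 at an unadjusted p under 0.05, and Nme2 was called lower by DESeq2 and by edgeR with library size alone.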

How the data were processed

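Groups and replicate numbers were taken from the sample titles. The submitters' processing notes and the design text name FastQC 0.11.2 for read quality, RSEM 1.2.22 with Bowtie2 for alignment to GRCm38 and gene values, and edgeR 3.14.0 in R 3.2.2 for the authors' own comparisons. The expected counts that the authors deposited are RSEM estimates and need not be whole, because a read that fits more than one gene is shared out. TPM, scaled by the authors for length and depth, serves only as a level. FPKM, also deposited by the authors, was not used further. No source used here states the strand setting of RSEM.

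Rounded expected counts went into edgeR 4.0.16 (R 4.3.3). The filter of the design text, a CPM over 10 in at least 2 libraries, kept 8273 of 32699 genes, and TMM scaled the libraries. All 12 libraries shared 1 quasi-likelihood model with a mean for each group. P-values were adjusted by Benjamini-Hochberg over all kept genes within each comparison, at a threshold of 0.05. SE is the size of the log2 fold change divided by the square root of F, and 95% intervals use the t quantile at the degrees of freedom of the test. The steps were tested on simulated data. The simulated counts had the same spread beyond counting noise in every gene and group, and no effect of the replicate number. That test therefore does not cover the wider spread of the TMG_E2 libraries or the pairing of libraries by number. The members and gene lists were chosen with earlier results of these data known, so that no pattern is independent support for another. Named with values per library are the 6 highest and 6 lowest called members in E2 against Ctrl, those called with TMG, and Pcna, Mcm2, Cdc6, Cdt1, Gmnn and Rrm2. Of the other pathway genes, the largest called change of each list and up to 2 called with TMG were named. Gene positions are those of GENCODE M21 and promoters those of RefSeq in GRCm38.p6, matched by symbol for 41 of 48 members.

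Libraries with the same number deviated together from their group means, least clearly in TMG against Ctrl. The correlation r was 0.108, 0.278 and 0.112 in E2 against Ctrl, and 0.285, 0.182 and 0.201 in TMG_E2 against E2. It was 0.525, 0.149 and 0.412 in TMG_E2 against TMG, and 0.0876, 0.0295 and 0.188 in TMG against Ctrl. In TMG against Ctrl, libraries with different numbers had r from -0.182 to 0.0748, a range that overlaps that of the same-numbered libraries. The main fit held no term for the replicate number in any comparison, so its SE and p-values leave such pairing out. The replicate number entered only in the alternative called the replicate block. Alternatives were RLE factors, library size alone, filterByExpr, no filter, only the groups compared, the replicate block, DESeq2 1.42.0 and leaving out each library.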

Additional observations from a re-analysis of the deposited data

How the results depend on the processing

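In E2 against Ctrl, leaving out each library in turn gave 20 to 22 members higher and 14 to 15 lower, with 6549 to 6620 of all genes called. In TMG_E2 against TMG the ranges were 21 to 24, 14 to 18 and 6660 to 6822. In TMG_E2 against E2 they were 1 to 4, 2 to 3 and 656 to 1160, the lowest count of higher members being without E2 replicate 2, and 539 of all genes were called with only the groups compared. In TMG against Ctrl, no member was higher in any leave-one-out fit, 0 to 1 were lower, and 196 to 257 of all genes were called. There, 0 members were higher with filterByExpr, 1 was lower with library size alone (Rfc5) and with no filter (Pold4), and 2 were higher and 2 lower with only the groups compared, where 768 of all genes were called. The interaction called 18 to 161 of all genes in leave-one-out fits (77 with all libraries), 48 with filterByExpr and 178 with no filter, and none of the members in any of them. Mcm5 turned to -0.0062 in E2 against Ctrl and -0.0014 in TMG_E2 against TMG with library size alone. The cause of these shifts was not tested.

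The replicate block gave 2 members higher (Pole3 and Fen1) and 2 lower (Orc5 and Rfc5) in TMG against Ctrl. It called 675 of all genes there, against 426 without the block. Libraries with the same number had r = 0.0876, 0.0295 and 0.188 in that comparison. With the block the interaction called 171 of all genes. Beside the calls of Mcm4, Orc3 and Rfc2 given in the report, it changed no other call of a member. The CPM required by the filter limits Mcm9 and Pold4, whose levels lie near it.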
